A study of Mus musculus with 8 samples.

Results

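The 35 genes described here encode the enzymes and the folate carrier that make folate-bound one-carbon units, purine and pyrimidine nucleotides, and deoxynucleotides. They were listed by symbol from their place in these pathways, and all 35 of them were found among the 39017 genes of the deposited table. Their RNA was measured in induced germinal center-like B cells (iGBs), which are splenic B cells grown on 40LB feeder cells. The feeders are a fibroblast line that displays CD40L and secretes BAFF, and the medium held IL-4 at 1 ng/mL. The 4 Prmt5-null libraries came from C57BL6/J mice with both Prmt5 alleles floxed and Cγ1-cre (Prmt5 F/F Cγ1-cre), and the 4 control libraries from C57BL6/J mice with Cγ1-cre alone, so both genotypes carried the Cre. Cγ1-cre is expressed from the switch region transcript that activated B cells make, so Prmt5 is deleted during the culture and not before it. The cells were taken off the feeders by elutriation at day 4, each library was from 1 mouse. The mice of the study were young adults of both sexes, a few months old, and no age or sex is given for a single library. The study asked how loss of Prmt5, an arginine methyltransferase, changes the transcripts of dividing B cells.

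Folate carries one-carbon units that are taken from serine and used to close the purine ring and to turn dUMP into dTMP. Purines and pyrimidines are built on phosphoribosyl pyrophosphate (PRPP) or recovered from free bases and nucleosides by salvage enzymes. Ribonucleotide reductase then makes the deoxynucleotides that a dividing cell needs in S phase. Germinal center B cells divide fast and draw heavily on these pathways, and antifolates and blockers of IMP dehydrogenase are known to restrain lymphocytes.

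Library depth recovered from the table was between 42752293 and 47174851 reads in the Prmt5-null and between 36731721 and 50366174 in the control libraries. Values below are normalized counts, which are read counts divided by the size factor of the library. For each gene they are listed for the control mice CTRL-10650 and CTRL-10370, then CTRL-10596 and CTRL-10597, and for the Prmt5-null mice PRMT5-10617, PRMT5-10618, PRMT5-10770 and PRMT5-10771, in that order. Prmt5 itself had 13088, 11084, 11657 and 11267 normalized counts in the control and 1291, 1994, 1060.3 and 1808 in the Prmt5-null libraries. The ranges were far apart, and the log2 fold change, Prmt5-null minus control, was -2.98 ± 0.17 (SE; limma, adjusted p = 6.1e-06). The B cell identity genes Cd79b, Ms4a1 and Pax5 were abundant in every library. The summed count of 9 B cell markers was 165654 ± 7079 (SD, n = 4) in control and 158888 ± 11974 (SD, n = 4) in Prmt5-null libraries. Of these 9 genes Cd79a, a chain of the antigen receptor complex, was called lower (log2 fold change -0.74, limma adjusted p = 0.00033) and the death receptor Fas passed the adjusted p higher (0.47, adjusted p = 0.0050).

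Most genes of the pathway did not pass the test after Prmt5 deletion, and those that did were mostly lower. A gene was called when its adjusted p was below 0.05 and its change at least 1.5-fold, and 2 of the 35 genes (5.71%) were called lower and 0 higher. The called genes were Slc19a1, which encodes the reduced folate carrier, and Tk1, which encodes the thymidine kinase of dividing cells. limma, edgeR and DESeq2 each called 0 of them higher, and 9 were lower and 3 higher at an unadjusted p below 0.05 in limma. Over all 16250 genes tested in limma, 2.99% were called lower and 3.49% higher. The same rule called 2.98% lower and 3.7% higher in edgeR and 3.13% lower and 4.01% higher in DESeq2, and each of these tools also called 2 members lower. At adjusted p below 0.05 without a fold threshold, 5 genes were lower (Slc19a1, Tk1, Impdh1, Pfas and Shmt1) and 1 was higher (Aprt), against 7.33% lower and 6.51% higher over all genes tested. These were 14.3% and 2.86% of the members, and whether these shares differ from the background was not tested. By adjusted p alone, edgeR passed 5 members lower and 1 higher, and DESeq2 5 and 3. The shares of all genes are not given here for the unadjusted p, nor for edgeR and DESeq2 without a fold threshold. Counts by these rules, here and below, are therefore not set against a background. The median log2 fold change of the 35 genes was -0.01, and that of all genes tested was 0.00.

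The intervals were narrow for most members. For 28 of the 35 genes the whole 95% interval of the fold change lay inside 1.5-fold in either direction, which was so for 57.4% of all genes tested. The exceptions were Slc19a1, Tk1, Impdh1, Pfas, Mthfd1l, Mthfd2l and Aprt. Control and Prmt5-null libraries did not overlap, with Prmt5-null lower, in Slc19a1, Shmt1, Pfas, Atic and Tk1 (5 of 35, against 10.2% of all genes tested). They did not overlap, with Prmt5-null higher, in Mthfd2l and Aprt (2 of 35, against 9.67%). These are bulk RNA values, in which fewer cells of a type and less RNA per cell cannot be told apart.

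**Figure D1:**
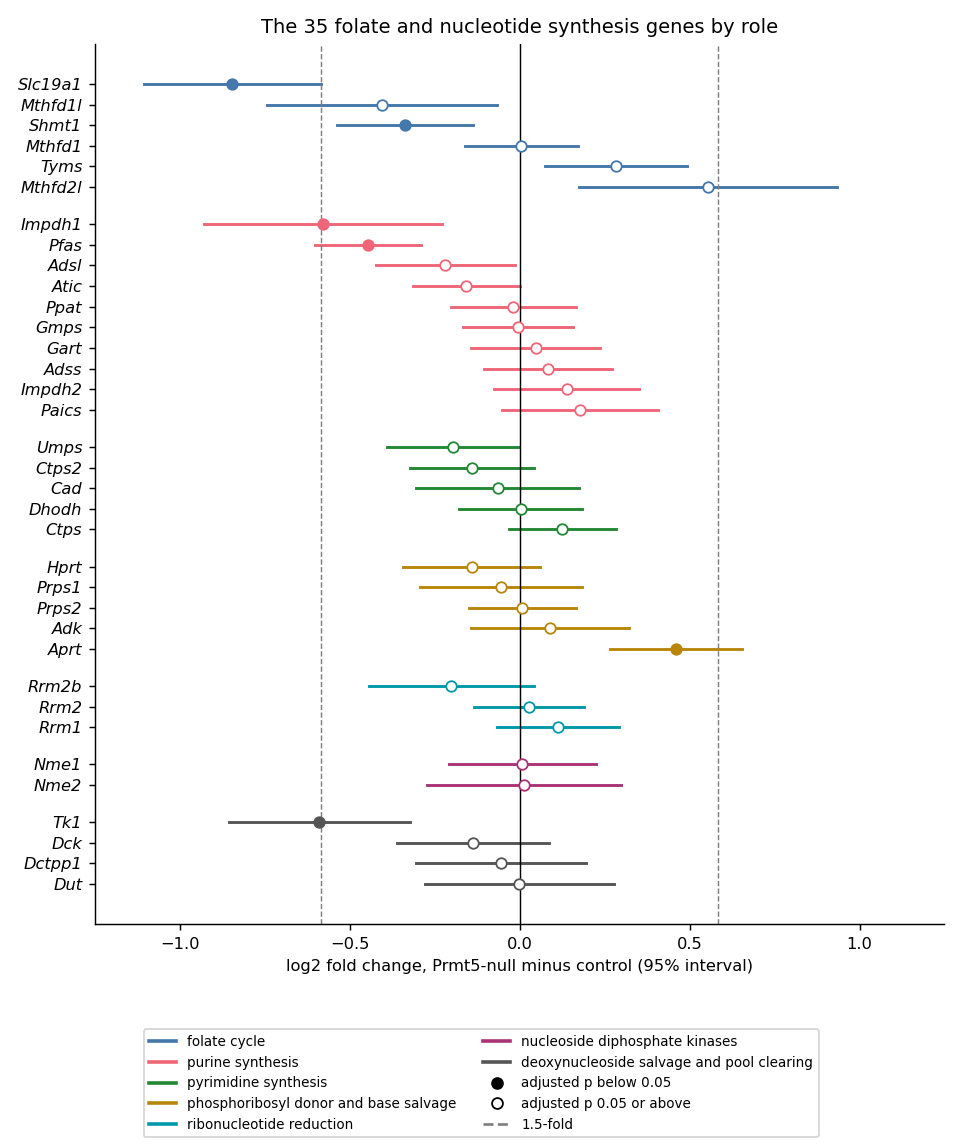
Log2 fold change of each of the 35 genes, Prmt5-null minus control (x axis), with its 95% interval from limma, in colors by role; filled points have an adjusted p below 0.05 and dashed lines mark 1.5-fold. The interval of Slc19a1 lies farthest to the left, and 28 of the 35 intervals stay between the dashed lines.

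The sequence upstream of the start site is shown for the genes past the adjusted p that have a window, which leaves out Pfas, and for Tyms, because genes of nucleotide synthesis are often described as targets of Myc, whose E-box reads CACGTG. RefSeq windows (GRCm38.p6) were found for 32 of the 35 genes, and the 250 bases before the first listed start were searched for CACGTG, which reads the same on both strands, and for the CCAAT box as CCAAT or ATTGG. The motifs do not overlap each other. An E-box was present in 5 of the 32 members (Atic, Impdh2, Nme1, Paics and Tyms; 15.6%) and in 6.05% of 27025 genes with a window. A CCAAT box was present in 11 of 32 (34.4%) and in 34.5% of all genes. None of the 5 windows found for genes past the adjusted p held the E-box letters, and of these windows only that of Shmt1 held the CCAAT letters. Bases that any annotated exon covers are left out below. Matches are in capitals, and each sequence reads 5′ to 3′ on the strand of its gene.
Slc19a1, chr10:77032489-77032683, plus strand: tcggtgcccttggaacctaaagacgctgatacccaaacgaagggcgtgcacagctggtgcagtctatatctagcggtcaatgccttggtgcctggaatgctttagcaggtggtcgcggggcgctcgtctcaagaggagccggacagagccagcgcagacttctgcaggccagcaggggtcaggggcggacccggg
Tk1, chr11:117826093-117826264, minus strand: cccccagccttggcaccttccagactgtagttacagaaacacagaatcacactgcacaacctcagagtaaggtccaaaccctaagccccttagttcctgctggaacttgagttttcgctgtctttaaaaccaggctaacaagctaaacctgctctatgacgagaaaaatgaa
Shmt1, chr11:60811266-60811466, minus strand: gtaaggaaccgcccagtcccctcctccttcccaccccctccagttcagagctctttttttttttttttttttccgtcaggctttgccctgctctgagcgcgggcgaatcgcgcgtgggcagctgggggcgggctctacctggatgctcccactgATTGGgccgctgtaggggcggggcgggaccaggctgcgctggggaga
Impdh1, chr6:29216365-29216614, minus strand: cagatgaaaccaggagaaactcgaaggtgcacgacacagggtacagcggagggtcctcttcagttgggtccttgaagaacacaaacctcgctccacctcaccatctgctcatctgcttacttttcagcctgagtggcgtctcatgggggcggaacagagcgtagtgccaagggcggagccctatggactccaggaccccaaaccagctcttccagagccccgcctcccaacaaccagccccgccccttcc
Aprt, chr8:122576910-122577157, minus strand: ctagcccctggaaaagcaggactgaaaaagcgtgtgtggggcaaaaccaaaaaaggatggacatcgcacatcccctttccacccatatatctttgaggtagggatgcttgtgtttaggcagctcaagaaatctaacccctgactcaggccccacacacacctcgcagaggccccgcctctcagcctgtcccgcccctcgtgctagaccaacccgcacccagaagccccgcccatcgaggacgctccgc
Tyms, chr5:30073626-30073875, minus strand: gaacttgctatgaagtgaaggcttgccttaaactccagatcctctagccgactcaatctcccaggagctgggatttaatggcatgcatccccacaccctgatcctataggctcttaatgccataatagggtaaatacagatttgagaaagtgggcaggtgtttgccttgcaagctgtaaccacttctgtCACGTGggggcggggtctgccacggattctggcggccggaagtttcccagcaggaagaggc

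Among the 6 members of the folate cycle, 1 was called lower, 2 passed the adjusted p lower and 0 higher. Slc19a1 (ENSMUSG00000001436), which brings reduced folates into the cell, had 1584, 1205, 1249 and 1357 normalized counts in control and 914, 676, 709 and 706 in Prmt5-null libraries. The highest Prmt5-null library, mouse PRMT5-10617, stayed below the lowest control library. The gene was 1.80-fold lower in Prmt5-null iGBs (log2 fold change -0.85 ± 0.12 SE, adjusted p = 0.00085), with a 95% interval from -1.11 to -0.59. Leaving out any 1 library gave log2 fold changes between -0.94 and -0.77.

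Shmt1, the cytosolic serine hydroxymethyltransferase that loads a one-carbon unit from serine onto tetrahydrofolate, had 6563, 5860.2, 5569.9 and 5870.4 normalized counts in control and 5130.1, 4264, 5268 and 4265 in Prmt5-null libraries. The genotypes did not overlap, and mice PRMT5-10618 and PRMT5-10771 were the lowest. Shmt1 fell by 0.34 on the log2 scale (SE 0.09, adjusted p = 0.030), short of 1.5-fold. It kept an adjusted p below 0.05 in 11 of 18 alternative settings, counted as set out with the processing. Exons of Shmt1 share 184 bases with Smcr8 on the other strand. Opposite-strand exons also cover 83 bases of Tk1 (Afmid), 1014 of Gart (Gm15964), 734 of Rrm2b (Gm49085) and 213 of Umps (Gm15829), so these counts are uncertain to that extent.

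Mthfd1l makes formate in mitochondria and had 8579, 9887, 7634 and 9139 normalized counts in control and 8167, 5003, 8288 and 5672 in Prmt5-null libraries. Prmt5-null mice PRMT5-10618 and PRMT5-10771 lay far below the controls and mice PRMT5-10617 and PRMT5-10770 within their range. The log2 fold change was -0.41 (95% interval -0.74 to -0.07, adjusted p = 0.10), so Mthfd1l did not pass the test in the 8 libraries. That call depends on mouse PRMT5-10770, without which the adjusted p was 0.035, and on which of the 2 experiments of the series each library belongs to, which no label gives. With an experiment block the adjusted p lay between 0.016 and 0.14 over the 18 possible placements of the libraries. Mthfd2l, a mitochondrial dehydrogenase and cyclohydrolase of the same branch, was the weakest member, at 92.6, 109.7, 87.8 and 82.9 normalized counts in control and 126, 125, 176 and 126 in Prmt5-null libraries. All Prmt5-null libraries exceeded all controls, with mouse PRMT5-10770 well above the rest, and the log2 fold change was 0.55 (95% interval 0.18 to 0.93, adjusted p = 0.054). Its adjusted p was 0.032 in DESeq2, 0.044 in limma without a trend and between 0.035 and 0.083 over the placements of the experiment block. Mthfd1, the cytosolic multifunctional enzyme that passes one-carbon units between their oxidation states, ranged from 7333 to 8474 in control and from 7456 to 8720 in Prmt5-null libraries, with a log2 fold change of 0.00 (95% interval -0.16 to 0.17).

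Tyms encodes thymidylate synthase, which uses folate to make dTMP. It had 4721, 4396, 4274 and 4346 normalized counts in control and 5388, 4717, 6516 and 5089 in Prmt5-null libraries. Only mouse PRMT5-10618 overlapped the controls, and it lay just below the highest of them. The log2 fold change was 0.28 (95% interval 0.07 to 0.49, adjusted p = 0.072), so the rise did not pass the test in the 8 libraries, while the adjusted p was 0.031 without mouse PRMT5-10618 and 0.046 in DESeq2, and it lay between 0.028 and 0.10 over the placements of the experiment block. Tk1, the salvage enzyme that makes the same nucleotide from thymidine, was called lower and is described with its group.

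Of the 10 purine synthesis genes, limma, edgeR and DESeq2 each called 0, while 2 passed the adjusted p, both lower, and 4 were lower at an unadjusted p below 0.05 in limma. The pathway from PRPP to IMP is run by Ppat, Gart, Pfas, Paics, Adsl and Atic in turn. Pfas, which makes the amidine intermediate with nitrogen from glutamine, had 10033, 8551, 8996 and 9283 normalized counts in control and 7073, 6634, 6552 and 6747 in Prmt5-null libraries. The 4 Prmt5-null libraries lay within a narrow band below every control. Pfas fell by 0.45 on the log2 scale (SE 0.07, adjusted p = 0.0019), which is 1.36-fold, and it passed the adjusted p in all 18 alternative settings.

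Ppat, which commits PRPP to purines, and Paics, which acts downstream of Pfas, are transcribed from a shared promoter region in opposite directions, and their annotated exons share 272 bases. Ppat had 6391, 5801, 5461 and 6446 normalized counts in control and 6191, 5334, 6469 and 5806 in Prmt5-null libraries. Paics had 16329.5, 17389.7, 14649 and 15026 in control and 17650.4, 15610.1, 21906 and 16929 in Prmt5-null libraries. The genotypes overlapped in both genes, and the log2 fold changes were -0.02 (95% interval -0.20 to 0.17, adjusted p = 0.92) for Ppat and 0.18 (-0.05 to 0.41, adjusted p = 0.29) for Paics. Gart, which has several activities in this pathway, also overlapped (log2 fold change 0.05, 95% interval -0.14 to 0.24). Adsl and Atic, which complete IMP, did not pass the test. Their log2 fold changes were -0.22 (adjusted p = 0.14) and -0.16 (adjusted p = 0.17), and the genotypes overlapped in Adsl. The adjusted p of Adsl was 0.032 without mouse PRMT5-10770 and between 0.043 and 0.19 over the placements of the experiment block. For Atic the highest Prmt5-null library, at 11159, was just under the lowest control, at 11204.

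IMP dehydrogenase opens the branch to GMP, and its 2 genes differed in level and in the test. Impdh1 had 1397, 1057, 1083 and 1191 normalized counts in control and 1068, 597, 843 and 712 in Prmt5-null libraries. Mouse PRMT5-10617 overlapped the lowest control, and mouse PRMT5-10618 was the lowest library. Impdh1 fell by 0.58 on the log2 scale (SE 0.16, adjusted p = 0.034), just short of the 1.5-fold threshold of 0.585. Leaving out any 1 library gave log2 fold changes between -0.725 and -0.446. Impdh1 passed the adjusted p in 11 of 18 alternative settings. Impdh2 had 5569.5, 5894, 5163 and 5312 normalized counts in control and 6174, 5145, 7163 and 5807 in Prmt5-null libraries, which overlapped. Its log2 fold change was 0.14 (95% interval -0.07 to 0.35, adjusted p = 0.38), and the difference between the paralogs was not tested. Per kilobase of exon, the control level of Impdh2 was 1783 ± 104 (SD, n = 4) normalized counts and that of Impdh1 was 359 ± 46.9 (SD, n = 4), so the paralog that was lower is also the minor transcript. Gmps, which finishes GMP, and Adss, which starts the branch to AMP, had log2 fold changes of -0.01 and 0.08, with both intervals inside 1.5-fold.

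**Figure D2:**
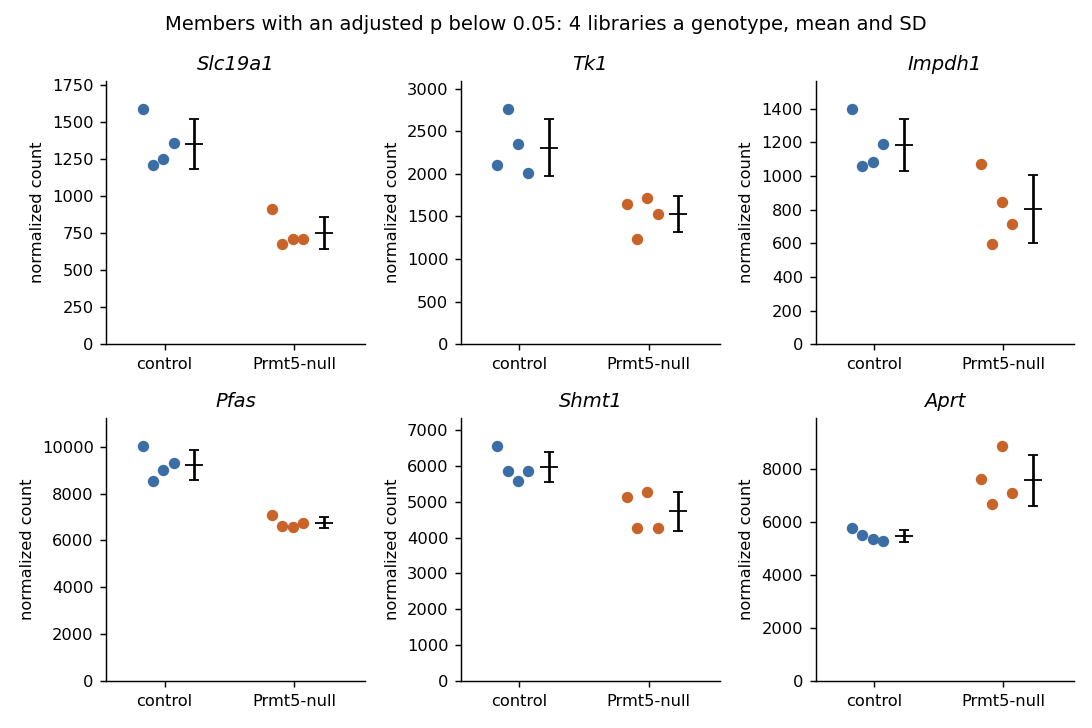
Normalized count (y axis, from 0) of the 6 genes with an adjusted p below 0.05, with 1 point a library, in control (blue) and Prmt5-null (orange) iGBs; black marks are the mean and SD of 4 libraries. Only in Impdh1 does a Prmt5-null library reach the range of the controls.

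None of the 5 pyrimidine synthesis genes passed the test, and all 5 intervals stayed inside 1.5-fold. In limma 1 of them, Umps, was lower at an unadjusted p below 0.05, and edgeR and DESeq2 passed 0. The multifunctional enzyme that starts the pathway is encoded by Cad, which ranged from 8042 to 11248 normalized counts in control and from 8119 to 10565 in Prmt5-null libraries. Dhodh, the mitochondrial step, ranged from 1174 to 1293 and from 1135 to 1335. Umps, which makes UMP, had the lowest log2 fold change of the group, -0.20 (95% interval -0.39 to -0.00, adjusted p = 0.16), and its adjusted p was 0.040 without mouse PRMT5-10770. CTP synthase is encoded by Ctps, with 4351, 4386, 4139 and 4620.2 normalized counts in control and 4976, 4483, 5054 and 4591 in Prmt5-null libraries, and by Ctps2, with 2063, 2191, 1969 and 1859 and 1692, 1746, 1968 and 1924. The genotypes overlapped in both, and the log2 fold changes were 0.13 (adjusted p = 0.27) and -0.14 (adjusted p = 0.29). Per kilobase of exon, Ctps was the more abundant, at 1319 ± 59.4 (SD, n = 4) against 428 ± 29.8 (SD, n = 4) normalized counts in control.

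PRPP synthetase and the salvage enzymes formed a group of 5 genes, of which 1 passed the adjusted p. Aprt, which recovers adenine as AMP, had 5772, 5509, 5358 and 5297 normalized counts in control and 7623, 6692, 8888 and 7123 in Prmt5-null libraries. Every Prmt5-null library exceeded every control, and the controls lay close together. Aprt rose 1.38-fold (log2 fold change 0.46 ± 0.09 SE, adjusted p = 0.0057), and it was the only member past the adjusted p in this direction. It passed in all 18 alternative settings. Hprt, which recovers hypoxanthine and guanine, did not pass the test, and its genotypes overlapped. It ranged from 8048 to 10231 in control and from 7358 to 9202 in Prmt5-null libraries (log2 fold change -0.14, adjusted p = 0.34). Adk, which phosphorylates adenosine, had a log2 fold change of 0.09 (adjusted p = 0.62).

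The PRPP synthetase genes did not pass the test either. Prps1 had 2965, 2869.9, 2320.4 and 2612 normalized counts in control and 2626, 2249, 3083 and 2434 in Prmt5-null libraries. Prps2 had 5881, 6025, 5812 and 5918 in control and 5487, 6471, 5689 and 6170.2 in Prmt5-null libraries. The genotypes overlapped in both, and Prps2 was the steadiest member in control, with an SD of 89.1 around 5909 (n = 4). The log2 fold changes were -0.05 (95% interval -0.29 to 0.18) and 0.01 (-0.15 to 0.17). Counts of some members are uncertain because other annotated transcripts hold the same bases. Of all 50-base stretches in the transcripts of Impdh2, 39.3% also stand in Impdh2-ps, and 9.93% of those of Prps1 stand in Prps1l3. Slc19a1, Impdh1 and Aprt shared no such stretch with another gene.

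Ribonucleotide reductase, which turns ribonucleotides into deoxynucleotides, is built from a large subunit, Rrm1, and a small one, Rrm2 in S phase or Rrm2b, a p53 target, outside it. None of the 3 genes passed the test in limma, edgeR or DESeq2, and 0 had an unadjusted p below 0.05 in limma. Rrm1 had the highest normalized count of all members, from 22930.1 to 25815 in control and from 24133 to 29608 in Prmt5-null libraries. Rrm2 had 9562, 10766, 9593 and 10994 normalized counts in control and 10655, 9899, 10625 and 10448 in Prmt5-null libraries, with all Prmt5-null values inside the control range. Rrm2b had 980.1, 1291, 983 and 1125 in control and 843, 966, 1068 and 919 in Prmt5-null libraries, which overlapped. The log2 fold changes were 0.11 for Rrm1, 0.03 for Rrm2 and -0.20 for Rrm2b (adjusted p = 0.40, 0.84 and 0.26). Per kilobase of exon, Rrm2 stood at 3691 ± 273 (SD, n = 4) and Rrm2b at 120 ± 16.1 (SD, n = 4) normalized counts in control.

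The nucleoside diphosphate kinases Nme1 and Nme2, which pass phosphate between nucleotides, lie side by side and share 418 and 573 exon bases with the annotated read-through gene Gm20390, so their counts are uncertain. Nme1 had 9599.9, 9888, 9880.2 and 9499 normalized counts in control and 10429, 8560.0, 11724 and 8697 in Prmt5-null libraries. Nme2 had 15504, 17588, 15585 and 14382 in control and 15884, 13546, 21326 and 13817 in Prmt5-null libraries. In both genes the Prmt5-null libraries ranged more widely than the controls, with mice PRMT5-10617 and PRMT5-10770 high and mice PRMT5-10618 and PRMT5-10771 low. The log2 fold change was 0.01 for both, and both intervals stayed inside 1.5-fold.

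In the group that salvages deoxynucleosides and clears the pool, 1 of 4 genes was called. Tk1 had 2105, 2758, 2345 and 2011 normalized counts in control and 1643, 1240.4, 1717 and 1523 in Prmt5-null libraries. The genotypes did not overlap, and mouse PRMT5-10618 was the lowest. Tk1 was 1.505-fold lower (log2 fold change -0.59 ± 0.12 SE, adjusted p = 0.0080), which is close to the fold threshold. The change was -0.49 without Prmt5-null mouse PRMT5-10618, -0.50 without control mouse CTRL-10370 and -0.58 without control mouse CTRL-10596, all with an adjusted p below 0.05 but short of 1.5-fold. The other salvage kinase, Dck, which acts on deoxycytidine and the purine deoxynucleosides, had a log2 fold change of -0.14 (95% interval -0.36 to 0.09). Dut, which removes dUTP and supplies dUMP, had -0.00 (-0.28 to 0.28), and Dctpp1, which clears modified dCTP, had -0.06 (-0.30 to 0.19). Dut was spread from 6786 to 10866 in Prmt5-null and from 7899 to 9496 in control libraries.

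Levels can be compared between members only per length. Per kilobase of annotated exon, the control level ran from 13463 ± 1139 (SD, n = 4) normalized counts in Nme2, through 7014 ± 727 in Hprt and 5049 ± 400 in Paics, down to 120 ± 16.1 in Rrm2b and 14.03 ± 1.75 in Mthfd2l. The exon union counts every annotated isoform, which lowers the value of genes with long rarely used exons. Of the 34 neighboring pairs in this order, 10 had control ranges that did not overlap, among them Nme2 over Hprt, Hprt over Paics and Paics over Rrm2. The control ranges of the other 24 pairs overlapped, although within each library the order held in all 8 libraries for 4 of these pairs, such as Rrm1 over Gart and Impdh2 over Shmt1.

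**Figure D3:**
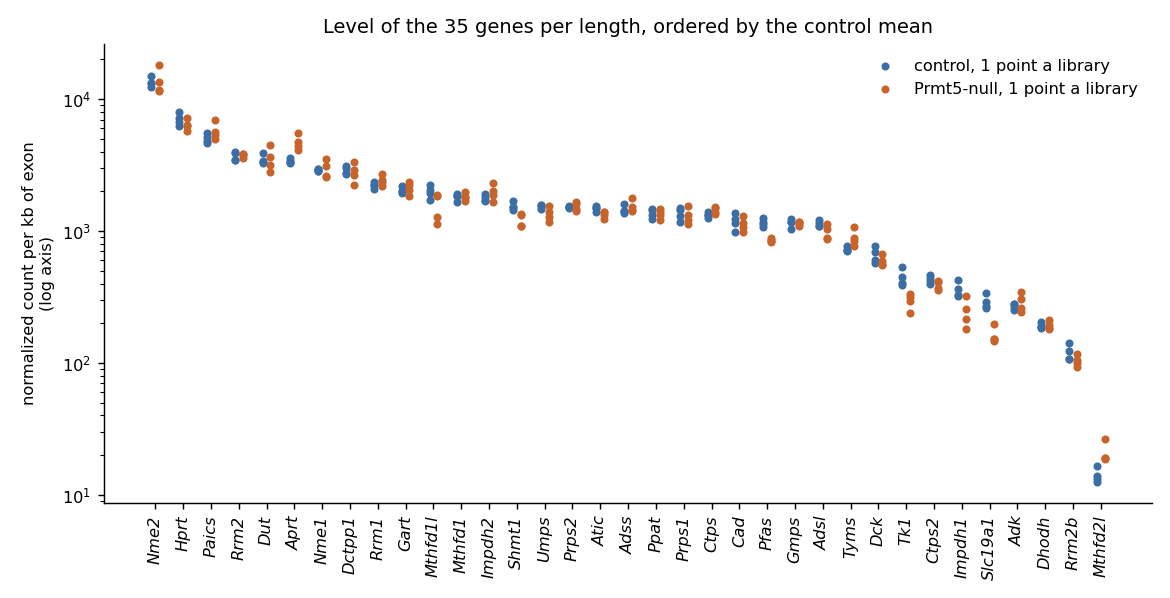
Normalized count per kilobase of exon (y axis, log scale) of the 35 genes, ordered by the control mean, with 1 point a library. The order runs from Nme2 to Mthfd2l, and the points of both genotypes lie together except in the genes named above.

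The Prmt5-null libraries differed among themselves in a way that ran through the list. Mouse PRMT5-10770 was the highest Prmt5-null library in 26 of the 35 genes and mouse PRMT5-10618 the lowest in 28. Over all 16250 genes tested, mouse PRMT5-10770 was the highest in 33.3% and mouse PRMT5-10618 the lowest in 29.1%. The 35 genes summed to 240391, 208962, 262567 and 222134 normalized counts in Prmt5-null mice PRMT5-10617, PRMT5-10618, PRMT5-10770 and PRMT5-10771, and to 241895, 243997, 223345 and 233695 in the control libraries, in the order above. The control libraries thus fell inside the range of the Prmt5-null libraries. The normalized total of mouse PRMT5-10770 was itself higher, at 46787703, against 43644519 to 43676897 in the other Prmt5-null libraries. As a share of that total, the 35 genes took 0.550%, 0.479%, 0.561% and 0.509% in the Prmt5-null libraries in the same order, so mice PRMT5-10770 and PRMT5-10617 were closer by share than by sum. The residual Prmt5 count, given above, was lowest in mouse PRMT5-10770 and highest in mouse PRMT5-10618, and its part in this spread was not tested. Without mouse PRMT5-10770, 8 members passed the adjusted p lower and 1 higher, and the median log2 fold change of the members was -0.08. Without mouse PRMT5-10618, 3 passed it lower and 2 higher, and the median was 0.03. Called lower were 3 members and 462 of all genes without PRMT5-10770, and 1 member and 563 of all genes without PRMT5-10618. The shares of all genes past the adjusted p alone in these fits are not given here. The series describes 2 experiments with 2 samples of each genotype, but no label ties a library to an experiment, so the part of the experiments in this spread was not tested.

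**Figure D4:**
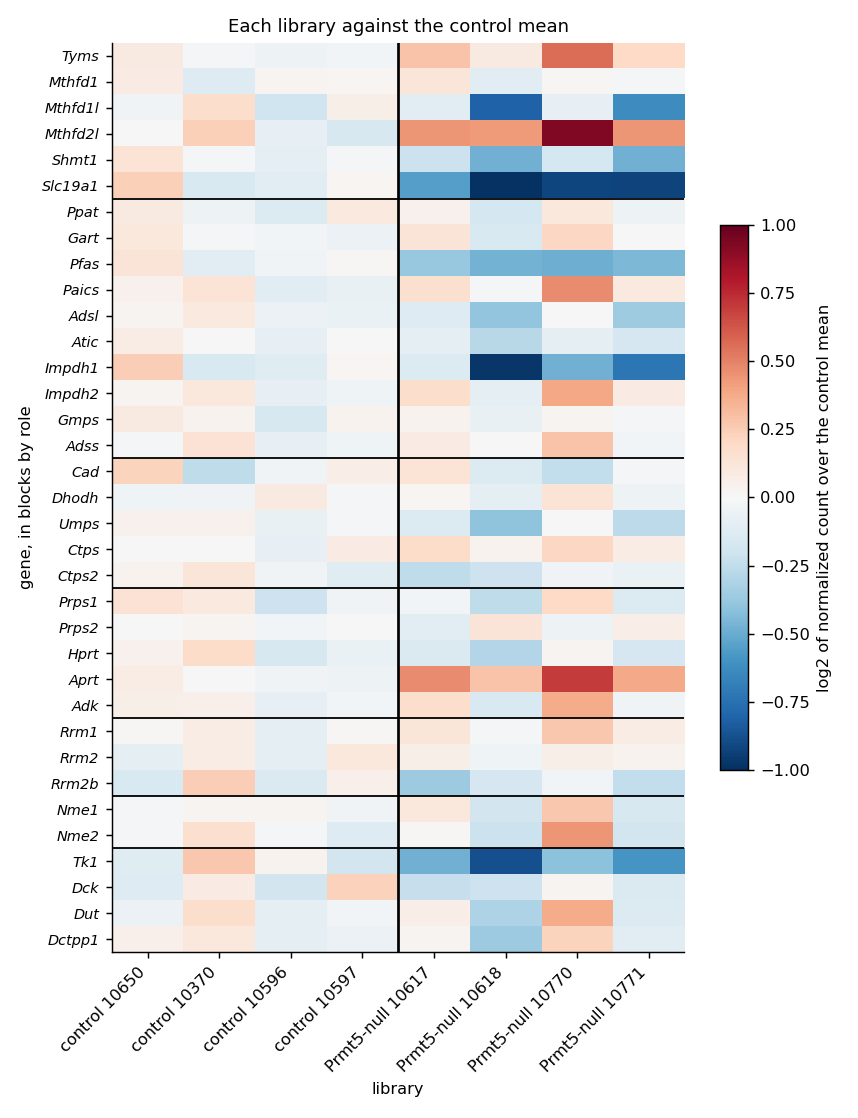
Log2 of the normalized count over the control mean (color, from -1 to 1) for the 35 genes (rows, in blocks by role) in each library (columns). Prmt5-null mouse PRMT5-10770 is redder and mouse PRMT5-10618 bluer than the other Prmt5-null libraries in most rows, and the Slc19a1 row is blue in all 4 of them.

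Only 2 members, Tyms and Shmt1, had an event in the deposited splicing tables, which is 5.71% of the members against 11.4% of the 13300 genes with a mean above 50. These tables list events chosen for a difference in these libraries, so the levels are a description, and the lists do not name their libraries. The Tyms event is the intron at chr5:30069956-30071633 on the minus strand (GRCm38), 1678 bases long. Its ends, read from the GENCODE transcript that retains it, carry the usual splice site bases, shown in capitals.
Tyms intron, first bases, chr5:30071614-30071633: GTaagggtagtgctgctgtt
Tyms intron, last bases, chr5:30069956-30069975: ctctcttattgtctctgtAG
The inclusion levels were 0.534, 0.786, 0.605 and 0.798 in control and 0.856, 0.835, 1 and 0.95 in Prmt5-null libraries. All Prmt5-null levels exceeded all control levels. They rest on 150 to 223 intron reads and 3 to 10 junction reads a library in control, and on 192 to 279 intron reads and 0 to 3 junction reads in Prmt5-null libraries. The exon after this intron, 122 bases long, is present in 1 of 9 annotated Tyms transcripts, so the level is relative to a rarely used junction and not to the main Tyms transcript.

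The Shmt1 event is a pair of exons of 117 and 123 bases at chr11:60790146-60790262 and chr11:60792949-60793071 that was scored as mutually exclusive. Inclusion levels were 0.796, 1, 1 and 1 in control and 0.864, 0.745, 0.423 and 0.549 in Prmt5-null libraries, so the genotypes overlapped. Each library gave between 3 and 15 reads, 64 in all, and both exons stand together in 6 of 11 annotated transcripts. With a minimum of 20 reads in each library, only the Tyms event was left.

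The wider pathway was described with 81 other genes of folate and nucleotide metabolism, of which 66 were tested. Of these, 2 were called lower and 2 higher, against the 2.99% and 3.49% called over all genes. The adjusted p was passed by 9 lower (13.6%) and 7 higher (10.6%), against 7.33% and 6.51% over all genes. Of the 62 other genes with a mean above 50, 11 (17.7%) had a deposited splicing event, against 11.4% of all such genes. Whether these shares differ was not tested. All 3 retained introns of these genes, in Ampd2, Slc29a1 and Nudt16, had higher inclusion in Prmt5-null libraries. The paper describes a preference for intron inclusion in Prmt5-deficient cells across its events, so this direction is not particular to these genes. The share of all deposited retained introns with this direction is not given here. Ak1, adenylate kinase 1, had 289.7, 243, 292 and 217 normalized counts in control and 798, 602, 745 and 699.7 in Prmt5-null libraries. The ranges were far apart, and Ak1 was 2.73-fold higher (log2 fold change 1.45 ± 0.13 SE, adjusted p = 8.3e-05). Mthfs, which returns 5-formyltetrahydrofolate to the folate pool, had 6999.9, 7849, 6324 and 6067 in control and 9527, 9073, 13604 and 9359 in Prmt5-null libraries. It was 1.51-fold higher (log2 fold change 0.60, adjusted p = 0.010), close to the fold threshold, and mouse PRMT5-10770 was the highest library. The change was 0.46 without Prmt5-null mouse PRMT5-10770, 0.56 without control mouse CTRL-10596 and 0.54 without control mouse CTRL-10597, all with an adjusted p below 0.05 but short of 1.5-fold.

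The called genes in the other direction were Nme3, a further nucleoside diphosphate kinase, and Nudt16, which removes inosine and related diphosphates. Nme3 had 388, 418, 459.6 and 419 normalized counts in control and 289.8, 223, 306 and 258 in Prmt5-null libraries and was 1.57-fold lower (adjusted p = 0.0057). Nudt16 had 344, 494, 379 and 297 in control and 285, 193, 270.5 and 205.5 in Prmt5-null libraries and was 1.58-fold lower (adjusted p = 0.031). Neither gene overlapped between genotypes. The call of Nme3 fell just short of 1.5-fold without mouse PRMT5-10618 (log2 fold change -0.57, adjusted p = 0.011). That of Nudt16 was lost in limma without a trend (adjusted p = 0.062) and when mouse PRMT5-10618, PRMT5-10771, CTRL-10650, CTRL-10370 or CTRL-10596 was left out (adjusted p between 0.053 and 0.091). Shmt2, the mitochondrial partner of Shmt1 and chosen for mention after its values were seen, had 11728, 11086, 9962 and 11158 in control and 8275, 6649, 8169 and 7059 in Prmt5-null libraries. It did not overlap either and fell by 0.55 on the log2 scale (SE 0.09, adjusted p = 0.0021).

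Genes that mark S phase and mitosis were set beside the members, since nucleotide synthesis follows the cell cycle. Of 20 S phase genes, limma, edgeR and DESeq2 each called 0, although 5 were lower and 1 higher at an unadjusted p below 0.05 in limma. In limma, 3 passed the adjusted p lower (Mcm7, Cdc6 and Ccne1), and the median log2 fold change was -0.04. The G2 and M phase list had 1 of 15 genes past the adjusted p, Top2a, at -0.35, with a median of -0.15, while 5 were lower and 0 higher at an unadjusted p below 0.05. Its summed count was lower in every Prmt5-null library, from 169241 to 181209 against 194041 to 216204 in control. Top2a, its most abundant gene, went from a mean of 65332 in control to 51192 in Prmt5-null libraries. Mki67 went from 45597 to 33987 (log2 fold change -0.44, limma adjusted p = 0.097), and its genotypes overlapped. The sum leans on these abundant genes, and 4 of the 15 genes had a log2 fold change above 0. The part of the difference in this sum in the lower count of Tk1 was not tested. Of the 8 tested genes of transcription factors linked to nucleotide synthesis, Atf4 (-0.47, adjusted p = 0.0037) and E2f8 (-0.46, adjusted p = 0.047) were lower, and Myc had -0.18 (95% interval -0.47 to 0.10, adjusted p = 0.38).

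Markers of other cells were measured beside these results. The 18 fibroblast markers summed to 14437 ± 2481 (SD, n = 4) in control and 22365 ± 3828 (SD, n = 4) normalized counts in Prmt5-null libraries, and 6 of the 16 tested were called higher. The 6 called (37.5%, against 3.49% of all genes tested) were Vim, Col1a2, Col3a1, Col5a2, Sparc and Timp2. All 16 tested markers had a log2 fold change above 0, with a median of 0.75, and DESeq2 called 10 higher. Vim, which B cells express too, was the most abundant of the 18 markers, and Postn and Lum were at or near 0. The sum was 27321, 17994, 21819 and 22327 in Prmt5-null mice PRMT5-10617, PRMT5-10618, PRMT5-10770 and PRMT5-10771, and its part in the member values was not tested. Of the T cell markers, Cd3e was at 0 in every library and Cd3d, Cd3g, Cd4, Cd8a and Cd8b1 were below the filter on low values, while the 10 markers summed to 2912 ± 394 in control and 2637 ± 437 in Prmt5-null libraries. Thy1, which is also 1 of the 18 fibroblast markers, was the most abundant of them, and 1 of the 4 tested, Lck, was called lower (log2 fold change -0.94, adjusted p = 0.00085) without overlap. Of the myeloid markers, S100a8 and S100a9 were at 0 in every library, the sums were 722 ± 25.7 and 780.1 ± 102, led by Cd68, and 1 of 4 tested genes was called higher. The 7 plasma cell markers summed to 70388 ± 9088 and 58545 ± 2315, led by Xbp1, with 2 of them past the adjusted p lower.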

How the data were processed

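The data are RNA-seq of iGBs at day 4, with 1 library a mouse and 4 mice a genotype. Per the submitters' processing notes and the paper's methods, the authors depleted ribosomal RNA, trimmed reads with Trimmomatic 0.32, aligned them with STAR 2.3.0e to GRCm38 and counted them with featureCounts 1.4.4; the strand setting of the counting is not given in the sources used here, so overlapping genes are uncertain. The authors deposited a normalized signal, each count divided by the DESeq2 1.14.1 size factor of its library. Dividing each deposited value by the smallest step of its library gave whole reads for 100% of values (within 0.001). The authors also deposited rMATS tables with inclusion levels as a fraction and the read counts behind them, in lists of 4 per genotype, controls first by the direction the paper states. Their own p-values and differences were not used.

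The table held 39017 genes, 12321 of them without a read anywhere. limma 3.58.1 in R 4.3.3 (lmFit, then eBayes with a trend) compared the genotypes on log2(normalized count + 1) for the 16250 genes whose mean reached 10, and p-values were adjusted over all of these (Benjamini-Hochberg); fold changes are on that scale. The smallest exact permutation p of 4 against 4 is 0.0286. edgeR 4.0.16 and DESeq2 1.42.0 on the recovered reads were alternatives, beside other pseudocounts, filters, thresholds, quantile normalization, leaving out each library, and an experiment block over its 18 possible placements, since no label gives the experiment of a library. Where a gene is counted over 18 alternative settings, the block placements enter only as their lowest and highest adjusted p. The other settings counted are the tools, limma without a trend, pseudocounts, filters, quantile normalization and each library left out. The fits were tested on simulated counts. Lengths, positions, overlaps and transcripts searched for shared 50-base stretches came from GENCODE vM21 (GRCm38) and promoters from RefSeq; a genome sequence was not used here. Tables were joined with pandas 2.3.3 under Python 3.11.15.

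The members and the other lists were chosen with earlier results of these data known. A further B cell marker is not reported here. Given in every library are the members past the call or the adjusted p (at most 6 a direction), the paralog pairs, Ppat and Paics, and members with a splicing event. Called genes with a mean above 50 are named from the other pathway genes. Mthfd1l and Mthfd2l are given in every library and Shmt2 is named outside this rule, chosen after their values were seen.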

Additional observations from a re-analysis of the deposited data

Results flagged for a closer look

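In groups of 4 libraries, a library was singled out when its gap to the nearest other, divided by the range of the group, was above Dixon's critical value at 95%. Of 72 groups examined, 2 were singled out, and chance singles out about 1 in 20. Mthfd2l was at 176 normalized counts in Prmt5-null mouse PRMT5-10770, with the other Prmt5-null libraries between 124.5 and 126, and the gap was 0.970 of the range. Slc19a1 was at 914 in Prmt5-null mouse PRMT5-10617, with the others between 676 and 709, and the gap was 0.862 of the range. Without mouse PRMT5-10617 the log2 fold change of Slc19a1 was -0.94.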

How the results depend on the processing

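No paired analysis was possible because the genotypes share no replicate numbers. Slc19a1, Tk1, Pfas and Aprt kept their direction and an adjusted p below 0.05 under all 18 alternatives for each gene, and Prmt5 under all of its own, with log2 fold changes from -3.12 to -2.81 when 1 library was left out. Without 1 library in turn, the members called lower ranged from 1 to 3, those past the adjusted p from 3 to 8 lower and from 1 to 2 higher, their median log2 fold change from -0.0800 to 0.0329, and the other pathway genes called from 1 to 4 lower and from 1 to 4 higher; the cause was not tested. At least 2-fold left 0 members called lower, 0 other genes lower and 1 higher, and 138 lower and 258 higher over all genes. At adjusted p below 0.01 without a fold threshold, 3 members were lower and 1 higher. With the 1.5-fold threshold kept, 2 members were called lower, 1 other gene was called lower and 1 higher, and 296 and 341 were called over all genes. limma without a trend gave 3 members past the adjusted p lower, 2 higher and 1 other gene called lower. DESeq2 on the recovered reads gave 3 members higher. Over the placements of the experiment block, members past the adjusted p ranged from 3 to 7 lower and from 1 to 3 higher. Shares of all genes past the adjusted p alone are not given here for these alternatives. The member counts by adjusted p alone in this section therefore stand without a background. A minimum of 20 reads in each library left 1 splicing event of the members. Dut, near 0, changed sign under quantile normalization (0.000758), edgeR (0.0193) and DESeq2 (0.0174). Leaving out 1 library turned the sign of 14 members near 0, all past no threshold, whose log2 fold changes then ranged from -0.0381 to 0.0408 (Mthfd1), -0.0645 to 0.0329 (Ppat), -0.00788 to 0.11 (Gart), -0.059 to 0.0248 (Gmps), -0.15 to 0.0102 (Cad), -0.0425 to 0.0355 (Dhodh), -0.14 to 0.0112 (Prps1), -0.0329 to 0.0464 (Prps2), -0.00378 to 0.17 (Adk), -0.00416 to 0.0629 (Rrm2), -0.08 to 0.0712 (Nme1), -0.13 to 0.0893 (Nme2), -0.13 to 0.10 (Dut) and -0.15 to 0.0471 (Dctpp1). With 4 libraries a genotype, a gene that did not pass may still have changed by an amount inside its interval. The p-values measure the spread between these mice in culture, and intervals cover no error of the processing.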
